A study of Drosophila melanogaster with 15 samples.

Results

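Neuronal RNA-binding protein genes were followed in nuclear RNA of the mushroom body, a paired structure of the fly brain where odour memories form. The members were chosen by symbol from a list of 10 genes: mub, elav, fne, Rbp9, Imp, Syp, orb2, pum, Fmr1 and msi. Of these, 9 could be matched to a row of the deposited count tables, out of 17559 gene rows in all, and all 9 passed the filter on low counts. Imp was not analysed here, because its current gene ID is not among the counted rows and no older ID was paired with it in the annotation used.

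All flies were male and carried the genotype UAS-unc84::GFP/+ with R14H06-Gal4, the driver that placed a GFP-tagged nuclear envelope protein in the mushroom body so that its nuclei could be purified by INTACT, an affinity method. Mature knockdown flies, 1 to 5 days after eclosion, expressed an RNAi hairpin against Bap60 from UAS-Bap6032503 (5 libraries), and mature control flies expressed UAS-mCherryRNAi (5 libraries). Juvenile knockdown flies, 0 to 3 hours after eclosion, carried the same Bap60 hairpin (2 libraries), and juvenile controls the mCherry hairpin (3 libraries). The Bap60 protein belongs to the Brahma (SWI/SNF) complex, which moves nucleosomes. A single Bap60 hairpin line was used, so an effect of that line and an effect of losing Bap60 cannot be told apart. No label states that replicates of a group were independent collections of flies. The p-values therefore speak only for the variation among these libraries, part of which may be technical.

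RNA-binding proteins help to set which exons, poly(A) sites and translation rates a neuron uses, and they do so by binding RNA. Elav and its paralogs Fne and Rbp9 bind U-rich RNA, and Elav controls alternative splicing and the choice of poly(A) site in the nucleus. mub encodes a KH-domain protein that binds poly(C) and is expressed in the mushroom body, and Syp is the fly relative of hnRNP Q. Pum, Orb2, Fmr1 and Msi hold back or release the translation of mRNAs that they bind. Mushroom body neuroblasts use opposing levels of Imp and Syp to time the birth of their neuron types, and pum, orb2 and Fmr1 have known roles in long-term memory.

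Total gene counts were 17447070 to 37563455 in mature knockdown, 18173548 to 70495790 in mature control, 45547974 to 53143845 in juvenile knockdown and 37879789 to 45731087 in juvenile control libraries. The target Bap60 averaged 11.2 ± 2.69 CPM in mature knockdown and 17.3 ± 2.61 CPM in mature control libraries (CPM, the gene's reads scaled to an equal library total; SD, n = 5 each; two-sided exact permutation p = 0.00794, the smallest possible when libraries are shuffled without regard to their replicate numbers). In juvenile flies it averaged 6.33 ± 1.84 CPM in knockdown libraries (n = 2) and 9.49 ± 3.76 CPM in controls (n = 3), with overlapping groups and an exact permutation p = 0.3, where the smallest possible is 0.1. The edgeR test over all genes, used for the calls below, called Bap60 at neither age. Its log2 fold change was −0.63 in mature flies (adjusted p = 0.719) and −0.58 in juvenile flies (adjusted p = 0.331). Over all genes, juvenile libraries varied more than mature ones, with a biological coefficient of variation of 0.848 against 0.221. Among controls, SD relative to the mean was lower in juvenile libraries for Rbp9, Syp, Fmr1 and msi, and higher for the other members. Juvenile control 1 was the lowest of its group for 7 of the 9 members. Summed CPM of 11 Kenyon cell markers ranged from 7555 to 13793 and of 8 pan-neuronal markers from 13154 to 21539 over the libraries, so both sets were present in each. Photoreceptor (3496 to 11645 CPM) and muscle genes (3853 to 22891 CPM) were also counted in each library, as were glial genes (625 to 1428 CPM), of which alrm and moody were listed at 0. In bulk nuclei, fewer cells of a type and less RNA per cell cannot be told apart.

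The members lie on 4 chromosome arms of assembly BDGP6.54 and all are protein-coding. On X are elav (FBgn0260400, 509235 to 523226, minus strand) and fne (FBgn0086675, 12917477 to 12950417, plus). Rbp9 (FBgn0010263) lies on 2L at 2954762 to 2968434 (plus). On 3L are mub (FBgn0262737, 21844788 to 21932702, plus) and orb2 (FBgn0264307, 8937100 to 8954463, minus). On 3R are Syp (FBgn0038826, 20756729 to 20810726, plus), pum (FBgn0003165, 9066343 to 9237682, minus), Fmr1 (FBgn0028734, 10101420 to 10110121, minus) and msi (FBgn0011666, 25516118 to 25608423, plus). Their spans differ far more than their exons: pum covers 171 kb with 11.8 kb of exon, and Fmr1 8.70 kb with 4.90 kb of exon.

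The counts of elav, Rbp9 and orb2 are uncertain because their exons share bases with other genes. On the strand of orb2, CG43783 shares 1319 exonic bases, and on the strand of elav the noncoding gene lncRNA:enrr shares 2994. The ID of lncRNA:enrr is not among the counted rows. On the opposite strands, arg shares 673 exonic bases with elav, and Ts shares 142 with Rbp9. Other counted genes overlap the spans of mub, Syp, pum and msi on the opposite strand without sharing exonic bases. They could matter if introns were counted, which is not stated. Reads that fit more than 1 gene were set aside as ambiguous and made up 7.08% to 7.75% of the gene, ambiguous and no-feature reads together. The part of such reads in the low elav and orb2 counts was not tested.

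mub was the most abundant member, and elav and orb2 were the least abundant. Divided by exon length, mub stood at 560 CPM per kb in mature knockdown, 572 in mature control, 309 in juvenile knockdown and 469 in juvenile control libraries, and its range lay above that of every other member in each group. In mature controls it was followed by pum (146), fne (108), Syp (99.95), Rbp9 (83.9), Fmr1 (32.0), msi (22.1), orb2 (0.717) and elav (0.221 CPM per kb). The ranges of fne and Syp overlapped there, as did those of Syp and Rbp9, while every other neighbouring pair was apart. In juvenile controls msi (38.1 CPM per kb) lay above Fmr1 (20.4), the opposite of their order in mature controls.

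The order depends on the length used. Per kb of gene span, pum lay behind Rbp9, fne and Syp in each group, and behind Fmr1 in mature flies, at 10.1 CPM per kb in mature controls against 49.4 for Rbp9, and mub stayed first at 82.8. In juvenile knockdown libraries pum lay above Fmr1 without overlap, and in juvenile controls their ranges overlapped. Fmr1 lay above msi in each group on this scale, at 11.5 against 4.75 CPM per kb in juvenile controls. Their change of order is therefore seen per kb of exon only. The files do not say whether introns were counted, so both scales are given. The raw counts show how thin the lowest members were: 32 to 278 reads per library for elav and 65 to 519 for orb2, against at least 2473 for every other member.

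**Figure D1:**
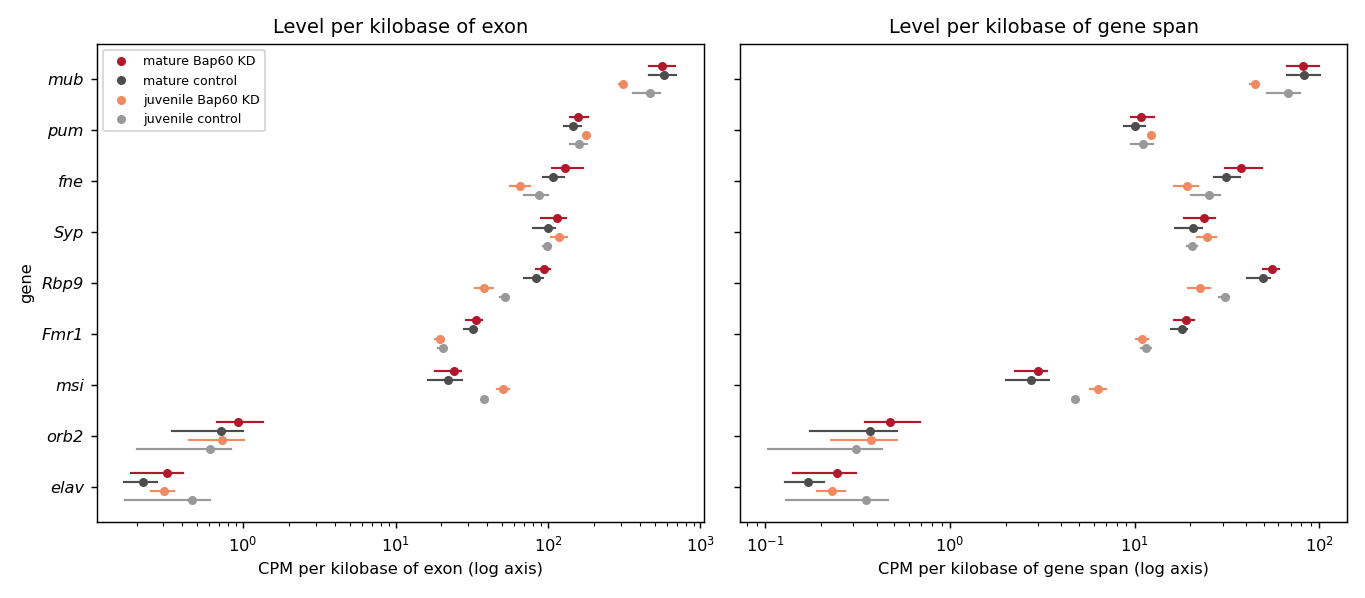
Level of each member per kilobase of exon (left) and per kilobase of gene span (right), both on log axes in CPM per kb; points are group means and bars run from the lowest to the highest library. mub lies highest on both scales, elav and orb2 lowest, and pum moves down the order on the span scale.

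The first question was which members differ between mature and newly eclosed flies. Rbp9 and Fmr1 rose and msi fell in both genotypes, each without overlap between the ages. fne and mub rose in knockdown flies and did not pass the test in controls. Syp, pum and orb2 passed in neither genotype. In knockdown flies 4 members were higher and 1 lower, where 17.8% and 16.4% of the 11997 genes tested were called higher and lower. In controls 2 members were higher and 2 lower, against 12.2% and 9.87% of all genes. Calls are edgeR quasi-likelihood tests with a Benjamini-Hochberg adjusted p under 0.05 over all genes tested. In all, 5 of 9 members were called in knockdown flies and 4 of 9 in controls, where 34.2% and 22.0% of all genes were. The ages did not overlap for 5 members in knockdown flies and 3 in controls, where 51.3% and 26.6% of all genes did not overlap, so a change with age was common in the whole table.

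Markers of other cells also moved with age. Of 12 tested photoreceptor markers, 7 were called higher in mature than in juvenile knockdown flies, with summed levels of 6721 to 10428 against 3496 to 4258 CPM, and 3 higher and 2 lower in controls, with 5347 to 11645 against 5177 to 5940 CPM; Arr2 was listed at 0. Of 8 fat body markers, 3 were called higher and 3 lower in knockdown flies (2077 to 3864 against 492 to 494 CPM) and 4 higher and 1 lower in controls (2333 to 3163 against 375 to 439 CPM). The rise in these sums is mostly apolpp, at 2878 against 161 CPM in knockdown flies and 2303 against 144 CPM in controls. The median of the 8 was log2 −0.42 in knockdown flies and 0.20 in controls. Of 6 tested glial markers, 2 were called higher and 2 lower in knockdown flies (625 to 915 against 1058 to 1318 CPM) and 1 higher and 3 lower in controls (645 to 1051 against 1355 to 1428 CPM). Gs2 had the largest part in these sums, at 508 against 876 CPM in knockdown flies and 541 against 997 CPM in controls. The median of the 6 was log2 0.27 in knockdown flies and −0.36 in controls. Of 4 markers of other neurons, 2 were called higher and 1 lower in knockdown flies (1078 to 1580 against 1299 to 2660 CPM) and 1 higher and 1 lower in controls (942 to 2301 against 3609 to 4179 CPM). The lower one was ple, the dopaminergic marker (log2 −2.84 in knockdown flies and −2.48 in controls), and Vmat was higher in both genotypes (1.00 in knockdown flies and 0.57 in controls). No muscle marker of 9 was called in either genotype. The part of these markers in the members' age differences was not tested.

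**Figure D2:**
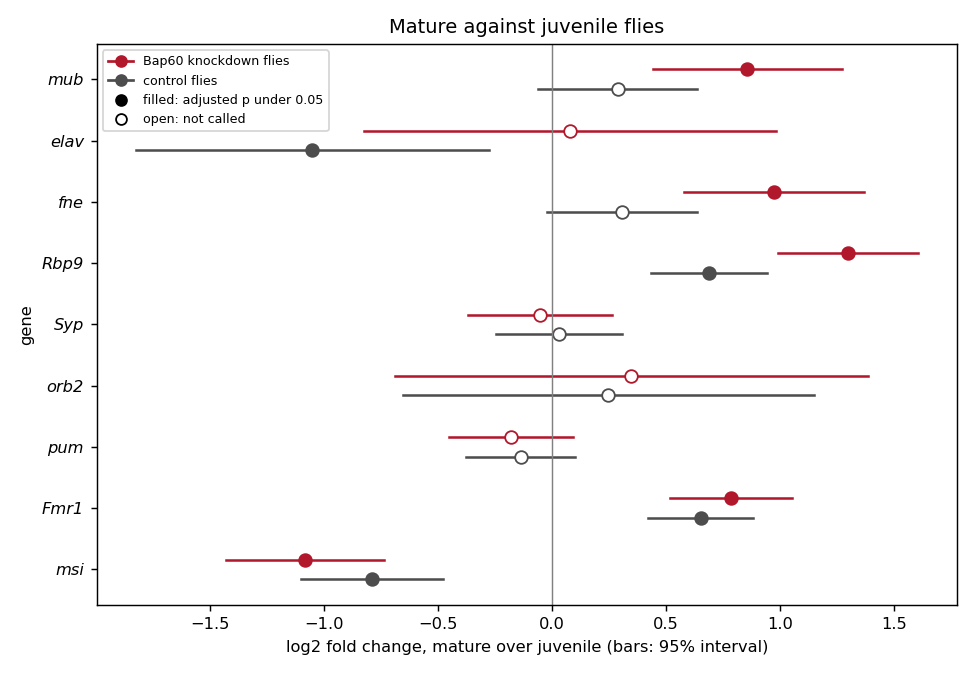
Log2 fold change of each member between mature and juvenile flies, for Bap60 knockdown (upper point of each pair) and control flies (lower point), with 95% intervals; filled points passed the adjusted test. Rbp9 and Fmr1 lie to the right and msi to the left in both genotypes.

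Within the Elav family, Rbp9, an Elav paralog of the adult nervous system, had the largest fold change among the members in knockdown flies. It had 675, 800, 767, 724 and 826 CPM in mature knockdown libraries, against 350 and 266 CPM in juvenile knockdown libraries. Among controls it had 557, 742, 626, 727 and 727 CPM in mature flies, against 443, 423 and 391 CPM in juvenile flies. Every mature library lay above every juvenile one of its genotype. The rise was 2.46-fold in knockdown flies (log2 1.30, SE 0.15, adjusted p = 8.72e-06) and 1.61-fold in controls (log2 0.69, SE 0.12, adjusted p = 0.000556).

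fne, the Elav paralog whose product acts in neurons and in mushroom body development, had 1137, 1168, 1612, 1021 and 1257 CPM in mature knockdown libraries, against 727 and 535 CPM in juvenile knockdown libraries. These groups did not overlap, and the rise was 1.96-fold (log2 0.97, SE 0.19, adjusted p = 0.000865). In controls fne had 882, 1011, 1071, 983 and 1217 CPM in mature flies, against 664, 953 and 887 CPM in juvenile flies. Here mature control 1 lay below juvenile controls 2 and 3, and the difference did not pass (log2 0.31, 95% interval −0.02 to 0.64, adjusted p = 0.168).

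elav, the gene most used to mark neurons, was counted thinly in these tables. It had 4.34, 1.98, 3.91, 3.87 and 2.98 CPM in mature knockdown libraries, against 2.67 and 3.79 CPM in juvenile knockdown libraries, and was not called (log2 0.08, adjusted p = 0.903). Control libraries had 2.39, 2.44, 2.33, 1.78 and 2.90 CPM in mature flies, against 1.81, 6.47 and 6.48 CPM in juvenile flies. Juvenile control 1 lay among the mature controls while the other juvenile controls lay above all of them. The test called elav lower in mature controls (log2 −1.05, SE 0.37, adjusted p = 0.0489), but the call was lost without any 1 of 13 libraries (adjusted p up to 0.168), with the replicate number as a block (0.154), in a fit on the control libraries alone (0.0809), with limma-voom weighted by age (0.175), without the filter on low counts (0.0543) and with upper-quartile scaling (0.0557).

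Within a library the 3 Elav family genes can be set against each other without any scaling between libraries. Rbp9 held 38.2 ± 3.72% of the family's reads in mature knockdown (SD, n = 5) and 32.7 ± 0.447% in juvenile knockdown libraries (n = 2). Its share was 39.5 ± 2.69% in mature controls (n = 5) and 33.7 ± 5.45% in juvenile controls (n = 3), where juvenile control 1 stood at 39.96% and the others at 30.6% and 30.4%. Neither age difference passed (exact permutation p = 0.19 and 0.107, each with an adjusted p over 8 such tests of 0.381 and 0.286). fne made up nearly all the rest, from 57.4% to 69.1%, and elav 0.1% to 0.504%. The elav share was lower in mature than in juvenile flies, at 0.174 ± 0.0568% against 0.359 ± 0.158% in knockdown flies (exact permutation p = 0.0476, the smallest possible) and 0.139 ± 0.0227% against 0.378 ± 0.187% in controls (exact permutation p = 0.0357), and neither passed after adjustment (0.19 each).

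mub had 8091, 6320, 8717, 5883 and 6607 CPM in mature knockdown libraries, against 4140 and 3723 CPM in juvenile knockdown libraries. All mature values lay above both juvenile ones, a 1.81-fold rise (log2 0.86, SE 0.20, adjusted p = 0.00303). In controls it had 7915, 5882, 8843, 6037 and 7727 CPM in mature flies, against 4585, 6923 and 6387 CPM in juvenile flies, with overlapping groups (log2 0.29, 95% interval −0.06 to 0.64, adjusted p = 0.22). Kenyon cell markers moved with mub: 6 of 11 were called higher in mature than in juvenile knockdown flies and 1 of 11 in controls, with summed levels of 9411 to 13793 CPM in mature knockdown libraries and 7555 to 7878 CPM in juvenile knockdown libraries. Their part in the rise of mub was not tested.

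Syp, which opposes Imp in the timing of mushroom body neuron types, passed the test in neither genotype. It had 1004, 1466, 1393, 1291 and 1245 CPM in mature knockdown libraries, against 1488 and 1170 CPM in juvenile knockdown libraries. The groups overlapped, and the difference was −0.05 on the log2 scale (95% interval −0.37 to 0.26, adjusted p = 0.799). In controls it had 893, 1170, 1102, 1248 and 1196 CPM in mature flies, against 1037, 1090 and 1172 CPM in juvenile flies (log2 0.03, 95% interval −0.25 to 0.31, adjusted p = 0.89). The 2 intervals together leave room for log2 changes between −0.37 and 0.31.

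Among the translational regulators, Fmr1, whose human counterpart is lost in fragile X syndrome, rose in both genotypes. It had 177, 181, 167, 142 and 156 CPM in mature knockdown libraries, against 103 and 88.3 CPM in juvenile knockdown libraries. In controls it had 164, 154, 167, 137 and 161 CPM in mature flies, against 93.6, 99.7 and 106 CPM in juvenile flies. No mature library reached down to a juvenile one. The rise was 1.72-fold in knockdown flies (log2 0.79, SE 0.13, adjusted p = 0.000213) and 1.57-fold in controls (log2 0.65, SE 0.11, adjusted p = 0.000364).

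msi, which encodes Musashi, a repressor of ttk translation in dividing sensory precursors, was the one member that fell in both genotypes. It had 207, 291, 309, 286 and 288 CPM in mature knockdown libraries, against 643 and 529 CPM in juvenile knockdown libraries. In controls it had 187, 245, 235, 315 and 287 CPM in mature flies, against 446, 431 and 439 CPM in juvenile flies. The ages were apart in both genotypes, by −1.08 on the log2 scale in knockdown flies (SE 0.17, adjusted p = 0.000125) and −0.79 in controls (SE 0.15, adjusted p = 0.000915). Of 6 tested markers of neuroblasts and immature neurons, 1 was called higher and 2 lower with age in knockdown flies (summed levels 5426 to 7503 against 3061 to 3866 CPM) and 1 higher and 1 lower in controls (5112 to 6603 against 3929 to 4945 CPM). These sums mostly follow pros, which averaged 6471 CPM in mature and 3190 CPM in juvenile knockdown libraries, and 5693 and 4247 CPM in controls. The median of the 6 markers was log2 −1.42 in knockdown flies and −1.09 in controls. The transcription factor gene grh was called lower in both genotypes (log2 −0.89 in knockdown flies and −0.86 in controls) and pros higher (1.02 in knockdown flies and 0.42 in controls), while ase and mira were listed at 0. The part of these cells in the msi difference was not tested.

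pum, a PUF-family repressor that acts on synaptic growth and excitability, was the most even member, with 1505 CPM in the lowest and 2167 CPM in the highest of the 15 libraries. It had 1855, 1643, 2167, 1779 and 1869 CPM in mature knockdown libraries, against 2114 and 2105 CPM in juvenile knockdown libraries (log2 −0.18, 95% interval −0.45 to 0.09, adjusted p = 0.293). In controls the difference was −0.14 (95% interval −0.38 to 0.10, adjusted p = 0.399). Neither comparison separated the ages.

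orb2, a CPEB-family gene whose product forms stable oligomers needed for long-term memory, had wide intervals in both genotypes. It had 5.99, 12.0, 6.22, 6.92 and 9.89 CPM in mature knockdown libraries, against 8.96 and 3.93 CPM in juvenile knockdown libraries. Control libraries had 3.05, 5.41, 7.39, 7.17 and 8.93 CPM in mature flies, against 1.79, 7.43 and 6.92 CPM in juvenile flies. The 95% interval ran from −0.69 to 1.39 on the log2 scale in knockdown flies and from −0.65 to 1.15 in controls, so the spread between these libraries leaves room for changes of the size seen for Rbp9 as well as for no change. CG43783, which shares exonic bases with orb2, stood at 46.3 ± 4.53 CPM in mature knockdown and 29.2 ± 9.57 CPM in juvenile knockdown libraries (log2 0.66, SE 0.18, adjusted p = 0.0095), and its part in the orb2 counts was not tested.

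**Figure D3:**
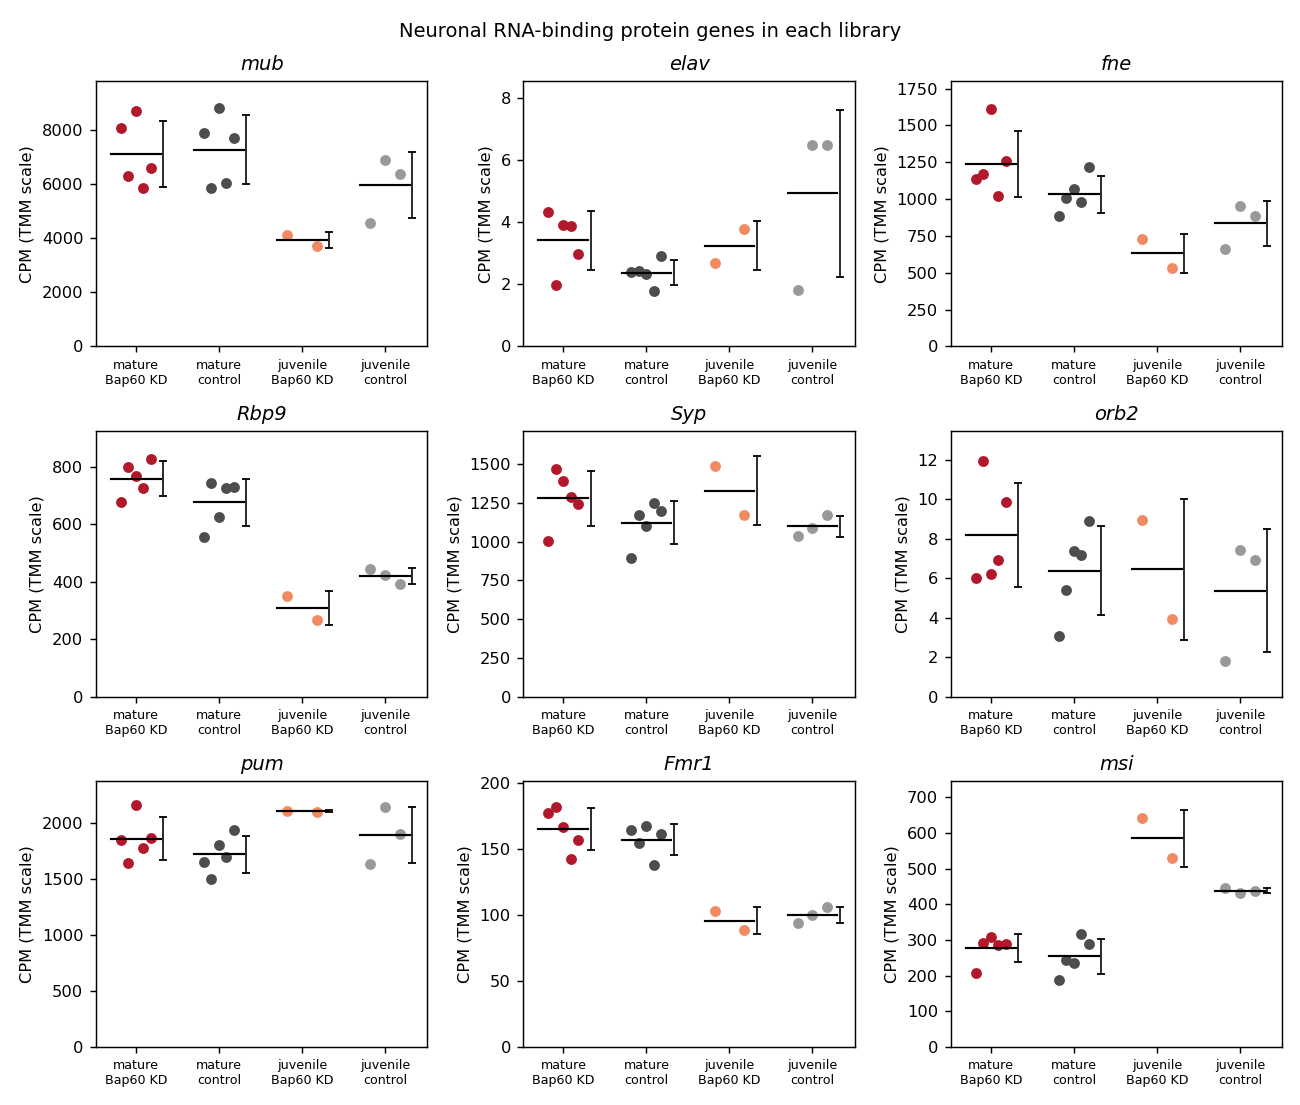
CPM of each member in every library (points), with group means (horizontal lines) and SD (bars at the right of each group); axes start at 0 and n is 5, 5, 2 and 3 from left to right. For Rbp9 and Fmr1 the mature points lie above the juvenile points of their genotype, and for msi below them.

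The second question was whether knockdown of Bap60 changed the members. No member was called in either age. In mature flies 0 of 9 passed, where edgeR called 0.0583% of all genes, 0.0167% higher and 0.0417% lower. DESeq2 and limma-voom also called no member. An unadjusted edgeR p under 0.05 was found for 0 members, and for 693 of the 11997 genes tested. All 9 members overlapped between mature knockdown and mature control libraries, in a table in which 1.93% of genes did not overlap. Within the 5 same-numbered pairs of mature libraries, fne and Syp were higher in the knockdown library in 5 of 5 pairs, as were 6.58% of all genes tested. With the replicate number as a block over all libraries, juvenile ones included, neither was called (fne log2 0.25, adjusted p = 0.967, and Syp log2 0.19, adjusted p = 1). That fit is not a paired test, and a fit of the 5 mature pairs alone was not run. The median log2 fold change of the members was 0.17, and that of all genes tested was −0.04.

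The intervals bound what could have been missed in mature flies. For pum the 95% interval of knockdown over control ran from −0.10 to 0.32 on the log2 scale, for Fmr1 from −0.12 to 0.26, for Rbp9 from −0.05 to 0.38, for Syp from −0.05 to 0.43, for msi from −0.15 to 0.40 and for mub from −0.33 to 0.27. fne had the smallest p of the members, with 1239 ± 225 CPM in mature knockdown libraries and 1033 ± 124 CPM in mature controls (SD, n = 5 each; log2 0.26, adjusted p = 0.85). A 2-fold change of these members lies outside the intervals. For elav (−0.17 to 1.22) and orb2 (−0.42 to 1.14) it does not.

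In juvenile flies edgeR called 0 of 9 members, where it called 5.33% of all genes, 1.54% higher and 3.79% lower. That split, 185 genes higher and 455 lower, became 314 and 234 under upper-quartile scaling and 281 and 335 under RLE. An unadjusted edgeR p under 0.05 was found for 3 members, and for 2613 of the 11997 genes tested. Those 3, Rbp9, mub and msi, were also the members whose groups did not overlap, a pattern found in 30.0% of all genes tested here. Rbp9 averaged 308 ± 59.4 CPM in juvenile knockdown libraries (SD, n = 2) and 419 ± 26.4 CPM in juvenile controls (n = 3; log2 −0.44, SE 0.15, adjusted p = 0.0878). mub averaged 3931 ± 295 CPM in juvenile knockdown libraries and 5965 ± 1225 CPM in juvenile controls (log2 −0.60, SE 0.21, adjusted p = 0.0959). msi averaged 586 ± 80.5 CPM in juvenile knockdown libraries and 439 ± 7.18 CPM in juvenile controls (log2 0.42, SE 0.19, adjusted p = 0.198).

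For mub, juvenile control 1 at 4585 CPM lay closer to the 4140 and 3723 CPM of the knockdown libraries than to the other controls. Without that library mub was called lower in juvenile knockdown flies (log2 −0.72, adjusted p = 0.042). Kenyon cell markers lay on the same side: 2 of 11, sNPF and prt, were called lower in juvenile knockdown flies, the median of the 11 was −0.45 on the log2 scale, and their summed level was 7555 to 7878 CPM in knockdown libraries and 8175 to 11940 CPM in controls. Markers of other cells moved as well. Photoreceptor markers, of which 0 of 12 were called (median log2 −0.55), summed to 3496 to 4258 CPM in juvenile knockdown libraries and 5177 to 5940 CPM in juvenile controls. Markers of other neurons, with 0 of 4 called (median −0.43), summed to 1299 to 2660 CPM in knockdown libraries and 3609 to 4179 CPM in controls. Muscle markers, with 0 of 9 called (median 0.54), summed to 14223 to 17287 CPM in knockdown libraries and 8235 to 11269 CPM in controls. Of 8 fat body markers (median 0.96) Lsd-1 was called higher in knockdown flies, and of 8 pan-neuronal markers nSyb was called lower. The part of any of these markers in the values of Rbp9, mub and msi was not tested.

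**Figure D4:**
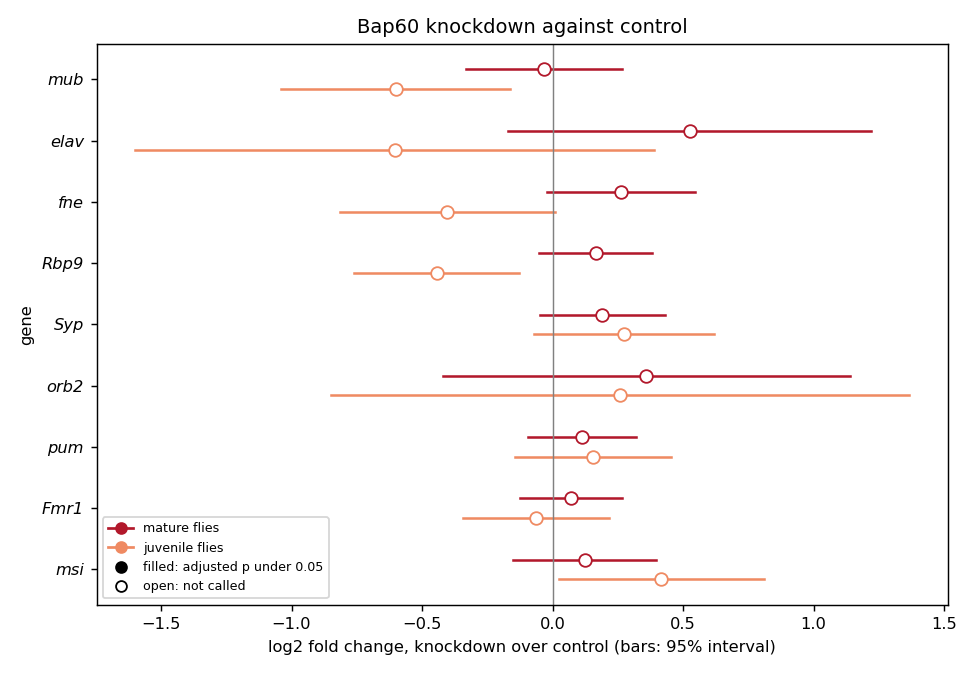
Log2 fold change of each member between Bap60 knockdown and control libraries in mature (upper point of each pair) and juvenile flies (lower point), with 95% intervals; all points are open because none passed the adjusted test. mub, fne and Rbp9 lie below 0 in juvenile flies. The juvenile intervals are wider throughout, with 2 and 3 libraries against 5 and 5. They use a spread shared by both ages, so their width does not measure the juvenile spread.

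The difference of the knockdown effects, mature minus juvenile, was tested directly and passed for no member, where 1.55% of all genes passed, 1.28% upwards and 0.275% downwards. Rbp9 came nearest, with a difference of 0.61 on the log2 scale (95% interval 0.23 to 0.99, adjusted p = 0.0985), followed by fne (0.67, 95% interval 0.17 to 1.17, adjusted p = 0.164) and mub (0.57, 95% interval 0.04 to 1.10, adjusted p = 0.263). This contrast is the same as the difference of the age effects between knockdown and control flies. The rise of fne and mub with age in knockdown flies was therefore not shown to differ from their age effect in controls.

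The pattern of each member over the 15 libraries was matched to the nearest gene of the whole table, by the root mean square difference of centred log2 CPM. These distances are descriptions, and the points share library, depth and age. pum lay nearest to heph (0.0408), Fmr1 to Vps26 (0.0728), Syp to ps (0.0864) and mub to Pka-R1 (0.0937). msi lay nearest to sdk (0.113), Rbp9 to pAbp (0.119), fne to mahe (0.126), elav to Bug22 (0.245) and orb2 to Vha36-3 (0.267). For comparison, the SD of the member itself over the libraries was 0.163 for pum, 0.508 for Rbp9 and 0.628 for orb2.

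Other RNA-binding and RNA-regulating genes were counted from 4 lists of 57 tested genes. In mature against juvenile knockdown flies 18 were called higher and 3 lower, and in controls 17 higher and 4 lower, or 36.8% each time, where 34.2% and 22.0% of all genes were called. None of the 57 was called between mature knockdown and mature control libraries, and 4, or 7.02%, were between juvenile ones, where 0.0583% and 5.33% of all genes were called. Of 18 translation repressors and decay factors, 11 were called higher and 2 lower with age in knockdown flies, and 8 higher and 1 lower in controls. The list's median was 0.46 in knockdown flies and 0.27 in controls, and that of all genes tested was −0.07 and −0.06.

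Unr, which encodes a cold-shock-domain regulator of translation, was called higher with age in both genotypes. It averaged 700 ± 79.4 CPM in mature knockdown libraries and 216 ± 34.0 CPM in juvenile knockdown libraries (log2 1.69, SE 0.15, adjusted p = 1.21e-06). In controls it averaged 668 ± 77.0 CPM in mature and 382 ± 23.5 CPM in juvenile libraries (log2 0.81, SE 0.12, adjusted p = 0.000156). Its knockdown effect differed between the ages (difference 0.89 on the log2 scale, SE 0.18, adjusted p = 0.0206), being −0.82 in juvenile flies (adjusted p = 0.00607). Both calls were lost without juvenile knockdown 2 (adjusted p = 0.0973 for the difference and 0.0662 in juvenile flies) and with limma-voom (0.162 and 0.159 with weights per library, 0.288 and 0.301 by age). The difference was also lost with the replicate block (0.0533) and upper-quartile scaling (0.0608).

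stau, which encodes a double-stranded RNA-binding protein that localises mRNAs, averaged 431 ± 38.7 CPM in mature knockdown and 215 ± 24.7 CPM in juvenile knockdown libraries (log2 1.00, SE 0.12, adjusted p = 1.78e-05). Its difference of knockdown effects (0.63, adjusted p = 0.0464) was lost under 20 of the 23 other settings, and its fall in juvenile knockdown flies (log2 −0.50, adjusted p = 0.0304) under 11 of 24. The poly(A)-binding protein gene pAbp rose in knockdown flies with age (log2 1.17, SE 0.15, adjusted p = 3.59e-05), as did Not1 (log2 0.46, adjusted p = 0.00136) and larp (log2 0.49, adjusted p = 0.00222) in controls. At most 3 called genes are named per list and comparison, so a change limited to 1 genotype is not meant. Mature ranges also lay above juvenile ones in controls for stau (372 to 420 against 279 to 326 CPM) and pAbp (1117 to 1731 against 1001 to 1049 CPM). In knockdown flies they did so for Not1 (738 to 871 against 586 to 597 CPM) and larp (867 to 1045 against 774 to 859 CPM).

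Among 26 genes of splicing and nuclear RNA binding, 6 were called higher and 0 lower with age in knockdown flies, and 7 higher and 2 lower in controls. Of all genes, 17.8% were called higher and 16.4% lower in knockdown flies, and 12.2% and 9.87% in controls. The hnRNP gene Hrb27C averaged 1010 ± 117 CPM in mature knockdown and 492 ± 90.7 CPM in juvenile knockdown libraries (log2 1.04, adjusted p = 0.000132), and 980 ± 94.4 against 604 ± 99.7 CPM in controls (log2 0.70, adjusted p = 0.00113). glo, an hnRNP F/H relative, rose in both genotypes (log2 0.61, adjusted p = 0.00145, in knockdown flies and 0.91, adjusted p = 1.9e-05, in controls). The SR protein gene x16 was called higher with age in knockdown flies (log2 1.31, adjusted p = 0.00145), and Hrb87F in controls (log2 0.76, adjusted p = 0.000188). Mature ranges also lay above juvenile ones for x16 in controls (21.0 to 26.7 against 12.4 to 16.7 CPM). For Hrb87F they did so in knockdown flies (66.8 to 78.6 against 58.3 to 60.0 CPM). In juvenile flies Hrb87F (log2 0.54, adjusted p = 0.0374) and B52 (log2 0.64, adjusted p = 0.0457) were called higher in knockdown libraries. The Hrb87F call was lost under 15 and the B52 call under 13 of 24 other settings. These include the limma-voom fits (adjusted p = 0.272 to 0.388), the replicate block (0.082 and 0.098), leaving out either juvenile knockdown library (0.088 to 0.306) and leaving out several of the other libraries.

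Of 7 genes for RNA granule proteins, 1 was called higher and 1 lower with age in knockdown flies, and 2 higher and 1 lower in controls. The share called among all genes was 34.2% in knockdown flies and 22.0% in controls. The granule gene rin, the fly G3BP, rose in both genotypes (log2 0.80, adjusted p = 0.000452, in knockdown flies and 0.55, adjusted p = 0.00341, in controls). Rox8, a relative of TIA-1, was called lower in both (log2 −0.36, adjusted p = 0.0106, in knockdown flies and −0.28, adjusted p = 0.0336, in controls). Its call in controls was lost under 13 of 24 other settings (adjusted p up to 0.191, and 0.065 with the replicate block), and that in knockdown flies without either juvenile knockdown library (0.119 and 0.0928) and with limma-voom weighted by age (0.0981). Tdrd3 was called higher in controls (log2 0.65, adjusted p = 0.00749), a call lost with both limma-voom fits (0.056 and 0.0606). None of 6 genes of the m6A pathway was called in any comparison.

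**Figure D5:**
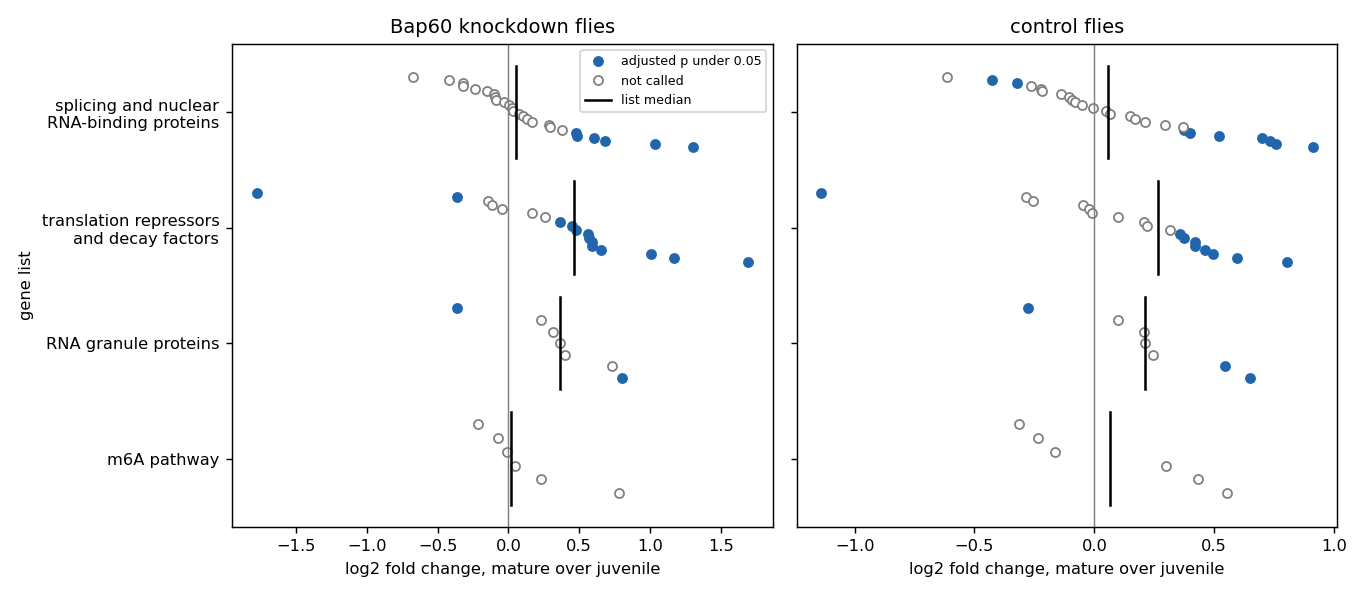
Log2 fold change between mature and juvenile flies for the other RNA-regulating genes in 4 lists, in Bap60 knockdown (left) and control flies (right); each point is 1 gene, filled where it passed the adjusted test, and the bar is the list's median. Translation repressors and decay factors have their median at 0.46 in knockdown flies and 0.27 in controls.

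Of 12 tested RNAs that are known targets of these proteins, 2 were called higher and 1 lower with age in knockdown flies, and 1 higher in controls. The share called among all genes was 34.2% in knockdown flies and 22.0% in controls. futsch, the fly MAP1B homolog and a classic Fmr1 target, was the one called in both genotypes. It averaged 3421 ± 519 CPM in mature knockdown and 1536 ± 1.75 CPM in juvenile knockdown libraries (log2 1.16, SE 0.17, adjusted p = 7.23e-05). In controls it averaged 3609 ± 517 CPM in mature and 2038 ± 209 CPM in juvenile libraries (log2 0.82, SE 0.14, adjusted p = 0.000392). hb, a target of Pum, was called lower with age in knockdown flies (log2 −1.05, adjusted p = 0.0236). That call was lost without either juvenile knockdown library (adjusted p = 0.193 and 0.0591), without mature knockdown 5 (0.0507) and with limma-voom weighted by age (0.0504). arm, which encodes the fly beta-catenin, was called higher (log2 0.46, adjusted p = 0.0107), and its call was lost without juvenile knockdown 1 (0.0892), with both limma-voom fits (0.0595 and 0.0847) and with upper-quartile scaling (0.0572). None of the 12 was called between knockdown and control libraries at either age.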

How the data were processed

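The authors deposited raw read counts per gene for 15 libraries; the submitters' processing notes name STAR 2.5.3a, HTSeq 0.7.1 and the build BDGP6. The strand setting, counted feature type and gene annotation were not stated there. Reads outside genes (1.12% to 2.84%) and ambiguous reads stayed out of library sizes. Reads outside genes were 1.66% to 2.84% in juvenile and 1.12% to 1.65% in mature libraries. No label gives a batch, so differences in preparation between the ages and age itself cannot be told apart. Names, lengths and positions came from annotation release 115 on BDGP6.54 (17253 IDs matched a symbol and 306 did not).

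The deposited counts were fitted with edgeR 4.0.16 (R 4.3.3), where filterByExpr (minimum count 10, minimum total 15) left 11997 genes, followed by TMM scaling, 1 mean per group over all libraries and robust quasi-likelihood F-tests of 5 contrasts. CPM are on the TMM scale and errors are SD. Intervals are 95%, from the fitted value and its SE. The spread of a gene was estimated over all 15 libraries together, so edgeR intervals and p-values do not use a separate spread for each age. Centred log2 values used a pseudocount of 0.5 CPM. The scripts were first tested on simulated data. For shares within a library, exact permutation tests (two-sided) were run. No pair of libraries in a group was a duplicate (lowest chi-square per degree of freedom 15.8).

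Alternatives were RLE and upper-quartile scaling, DESeq2 1.42.0, limma 3.58.1 voom with weights per library or by age, other filters, fits on the compared groups, the replicate number as a block, and each library left out. Same-numbered mature libraries deviated together (r across genes of 0.115 to 0.559 over 5 pairs), which was taken as pairing. Libraries of unlike number were not compared, so these values cannot show that the numbers mark pairs. In the other comparisons r was −0.238 to 0.0358. The main tests and the exact permutation tests did not use these pairs, so their p-values in mature knockdown against control are for unpaired libraries.

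The members, lists and tests were chosen with earlier results of these data known. The rule named all members, Bap60, up to 3 called genes per list and comparison, and the nearest pattern of each member. The planned ratio of Imp to Syp was not computed, and the Rbp9 share and CG43783 were added later.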

Additional observations from a re-analysis of the deposited data

Results flagged for a closer look

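One value stood apart from the other libraries of its group. In mature knockdown 1, msi was at 207 CPM, below the 286 to 309 CPM of the other mature knockdown libraries, a gap large for the spread of 5 libraries by Dixon's test at the 95% level. Of 22 groups of 5 libraries examined this was the 1 that stood out, and chance gives about 1 in 20. Without mature knockdown 1, the fall of msi with age in knockdown flies kept its direction and its call.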

How the results depend on the processing

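The number of members called stayed at 0 in mature knockdown against control and in the difference of knockdown effects, at 5 with age in knockdown flies and at 3 to 4 with age in controls, under each alternative run; with age in controls the fourth was elav. In juvenile knockdown against control it was 0, except for 1 (mub) without juvenile control 1, so that leaving out single libraries gave 0 to 1. The calls of Rbp9, Fmr1 and msi with age in both genotypes, and of fne and mub in knockdown flies, held under all 24 alternatives. With the replicate block no other member call than elav changed.

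Some log2 fold changes of members that were not called turned in direction, mostly values near 0 and, for orb2, values of up to 0.35. Fmr1 in juvenile knockdown was 0.0031 with RLE scaling, 0.047 with upper-quartile scaling and 0.0029 with DESeq2. Syp with age in controls was −0.035 with RLE scaling and with DESeq2, −0.0452 with the stricter filter and −0.0177 with the block. elav with age in knockdown flies was −0.0355 with RLE, −0.0154 with upper-quartile scaling, −0.0359 with DESeq2, −0.0296 with limma-voom and −0.0384 with the stricter filter. With the block, orb2 was −0.1017 with age in knockdown flies and −0.265 in the difference of knockdown effects, which was −0.0152 with upper-quartile scaling. Leaving out single libraries gave −0.111 to 0.0521 for mub in mature knockdown, −0.2082 to 0.0375 for Fmr1 and −0.5047 to 0.7314 for orb2 in juvenile knockdown. It gave −0.2441 to 0.1335 for Syp, −0.3723 to 0.8664 for orb2 and −0.1363 to 0.0055 for pum in the difference of effects. With age in controls it gave −0.0095 to 0.0998 for Syp and −0.1567 to 0.556 for orb2, and with age in knockdown flies −0.0789 to 0.3579 for elav, −0.2114 to 0.2014 for Syp and −0.1231 to 1.1309 for orb2. The knockdown difference in juvenile elav share was −0.1306 to 0.0924 percentage points, and that in Rbp9 share −2.132 to 0.175 in mature and −2.543 to 2.216 in juvenile flies. The cause of these turns was not tested.

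Over all genes, the count called ran from 2 (replicate block) to 114 (limma-voom with sample weights) in mature knockdown, where 7 were called, and from 4 (limma-voom weighted by age) to 1216 (DESeq2) in juvenile knockdown, where 640 were. For the difference of effects it ran from 0 (limma-voom weighted by age, with 1405 genes at an unadjusted p under 0.05) to 550 (DESeq2), against 186. With age it ran from 1360 to 3154 in controls, against 2644, and from 2516 to 4640 in knockdown flies, against 4104. Upper-quartile scaling moved the median log2 fold change of all genes to 0.09 in juvenile knockdown, against −0.02, to −0.14 in the difference of effects, against −0.03, and to −0.17 with age in knockdown flies, against −0.07. The last was −0.18 with RLE scaling. Low counts limit what can be said of elav and orb2. The planned ratio of Imp to Syp and its alternatives were not run, since Imp was not analysed here.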
